A study of Mus musculus and Homo sapiens with 32 samples.

Results

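The comparison described here set kidneys treated with LY2109761 against kidneys treated with DMSO, both from Pcmt1 fl/fl mice whose ureter had been obstructed. It used 6 of the 32 samples of the series, taken by their genotype and treatment labels. The tissue was whole kidney and the measurement bulk mRNA sequencing. The inhibitor group held 3 libraries labelled Pcmt1 fl/fl, UUO and LY2109761, numbered 1, 3 and 4. The vehicle group held 3 libraries labelled Pcmt1 fl/fl, UUO and DMSO, numbered 1, 2 and 3. UUO is unilateral ureteral obstruction, an operation that blocks the outflow of a single kidney and is followed by tubular injury, inflammation and scarring. Both groups carried floxed alleles of Pcmt1, a methyltransferase that repairs damaged aspartyl residues in proteins, and neither was labelled as lacking the gene. DMSO is the solvent of the inhibitor. Set beside them were 3 fl/fl sham libraries with DMSO and 6 libraries from obstructed tKO kidneys, 3 with LY2109761 and 3 with DMSO. A further 3 tKO sham libraries with DMSO entered the common fit of 18 libraries. The labels do not spell out tKO, and they give no strain, age, sex, dose, route or time after surgery. They do not say whether libraries of a group came from separate animals, so p-values here speak to the variation among the sampled libraries, part or all of which could be technical.

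Transforming growth factor beta (TGF-β) is released from a latent complex in the matrix and binds the receptor kinases TGFBR2 and TGFBR1. TGFBR1 then phosphorylates Smad2 and Smad3, which enter the nucleus with Smad4 and switch on genes for matrix proteins, protease inhibitors and feedback inhibitors such as Smad7. LY2109761 is a small molecule that blocks the kinases of TGFBR1 and TGFBR2. In obstructed kidneys the pathway is known as a main driver of fibroblast activation and collagen deposition, and bone morphogenetic proteins (BMPs) signal through related receptors and through Smad1, Smad5 and Smad9.

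The 6 libraries held the markers of kidney. All 33 proximal tubule markers in the table were counted in every one of the 6 libraries, as were all 18 collecting duct markers, all 12 podocyte markers and 16 of 17 markers of the thick ascending limb and the distal nephron. Obstruction showed in Havcr1 (KIM-1), the classic marker of injured proximal tubule, with 862, 847 and 982 CPM (counts scaled to the library total after normalization) with LY2109761 and 1690, 1420 and 1220 CPM with DMSO, against at most 3.20 CPM in sham kidneys. Havcr1 was lower in all 3 inhibitor libraries, a difference of −0.69 on the log2 scale (95% interval −1.19 to −0.19) that did not pass the threshold (edgeR adjusted p = 0.0957). Pcmt1 itself stood at 31.3, 25.7 and 39.0 CPM with LY2109761 and at 41.4, 35.3 and 40.6 CPM with DMSO. Its groups overlapped and the difference was −0.29 (edgeR adjusted p = 0.495).

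Across the transcriptome, 486 genes were higher and 505 lower with LY2109761 than with DMSO, of 19256 genes tested (edgeR quasi-likelihood test, Benjamini-Hochberg adjusted p under 0.05). These are 5.15% of the genes tested, 2.52% higher and 2.62% lower, and the median log2 fold change of all genes was 0.02. For 31.8% of genes, 16.3% higher and 15.4% lower, no library of either group fell within the range of the other. The genes that rose included 4 matrix genes, 3 uroplakins, 5 ribosomal protein genes and the BMP target genes Id1 and Id3. Those that fell included Bmp6, interferon-induced genes and enzymes of fatty acid oxidation. No member of the 4 lists of TGF-β ligands, latency genes, receptors and Smads passed. The number of genes called depended on which libraries were included. Leaving out LY2109761 replicate 3 left 2 calls, Ttll12 and the gene model Gm6652, with 2896 genes at an unadjusted p under 0.05. There were 116 calls without LY2109761 replicate 1, 1269 without LY2109761 replicate 4, 47 without DMSO replicate 1, 264 without DMSO replicate 2 and 892 without DMSO replicate 3. No gene among the 991 changed sign in any of these fits. The fits share most libraries with the one that picked the genes, so the sign is no independent check. Apart from Ttll12 and Gm6652 each named gene called here was lost without LY2109761 replicate 3. Library totals ran from 13015669 to 17297047 counts with LY2109761 and from 14803250 to 19340017 with DMSO, and LY2109761 replicate 3 was the shallowest.

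**Figure D1:**
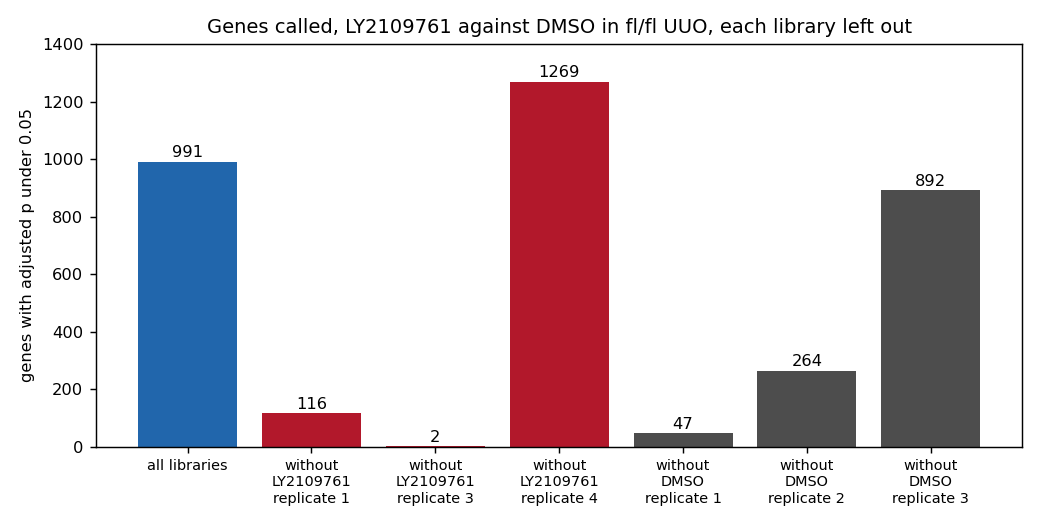
Number of genes past the threshold in the LY2109761 against DMSO contrast of obstructed fl/fl kidneys (y axis, count of genes), with all libraries (blue) and with each LY2109761 library (red) or DMSO library (grey) left out. The count is 991 with all libraries and runs from 2 without LY2109761 replicate 3 to 1269 without LY2109761 replicate 4.

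No gene of the TGF-β pathway itself passed the threshold. Of 36 ligands, latency and activation genes, receptors and Smads, 0 passed the threshold, against 5.15% of all genes tested, with a median log2 fold change of −0.09 and 16 of the 36 above 0. Single values of the 36 ran from −1.33 to 1.40. In the test of the difference between fl/fl and tKO kidneys, 1 of the 36 was called higher in fl/fl and 1 lower, against 6.8% and 7.05% of all genes. In FPKM, which divides fragment counts by gene length and library total, Eng was the most abundant of the receptors, with 26.2 ± 1.61 with LY2109761 and 25.7 ± 0.38 with DMSO (SD, n = 3 each), ahead of Tgfbr2 with 15.4 ± 1.87 and 21.9 ± 0.85.

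Among the ligands, Tgfb1 had 79.8, 65.2 and 81.5 CPM with LY2109761 and 107, 98.5 and 76.3 CPM with DMSO, against 16.5, 13.8 and 16.1 CPM in sham kidneys. The obstructed groups overlapped, and both stood well above sham. The difference was −0.31 (95% interval −0.76 to 0.13, edgeR adjusted p = 0.404). Tgfb2 and Tgfb3 differed by −0.26 and −0.13, and Tgfb3 turned to 0.03 without DMSO replicate 1. Of the genes that hold or release latent TGF-β, Ltbp2, which rose with obstruction by 6.66 on the log2 scale, differed by 0.13 between the inhibitor and vehicle groups. Itgb6, which forms the αvβ6 integrin that frees the ligand on epithelium, differed by −0.38 (95% interval −0.82 to 0.07).

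Tgfbr2, the ligand-binding kinase, had 122, 123 and 149 CPM with LY2109761 and 192, 166 and 176 CPM with DMSO. Its groups did not overlap, and the difference of −0.44 (95% interval −0.98 to 0.10) missed the threshold (edgeR adjusted p = 0.327). Tgfbr1, the kinase that phosphorylates the Smads, had 84.1, 6.01 and 101 CPM with LY2109761 and 73.3, 72.6 and 72.9 CPM with DMSO. A single inhibitor library, replicate 3, was far below the other 5, and the sign rested on it. The difference was −0.20 with it (95% interval −1.83 to 1.44) and 0.34 without it. The co-receptors Tgfbr3 and Eng and the endothelial receptor Acvrl1 differed by −0.05, 0.10 and 0.0039, and Acvrl1 turned to −0.07 with column totals in place of TMM.

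The Smads carry the signal to the nucleus, and none passed. Smad2 differed by −0.31, Smad4 by −0.30 and Smad5 by −0.29. Smad3 had 73.6, 76.2 and 102 CPM with LY2109761 and 102, 79.0 and 71.4 CPM with DMSO, and differed by less than 0.01 (95% interval −0.36 to 0.36). Smad1 differed by 0.39, Smad9 by 0.13 and the inhibitory Smad6 by −0.56. Smad7, the feedback inhibitor that TGF-β induces, had 19.2, 23.3 and 25.8 CPM with LY2109761 and 9.67, 27.9 and 41.3 CPM with DMSO. The vehicle libraries enclosed the inhibitor libraries, and the difference was −0.21 (95% interval −1.16 to 0.75).

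**Figure D2:**
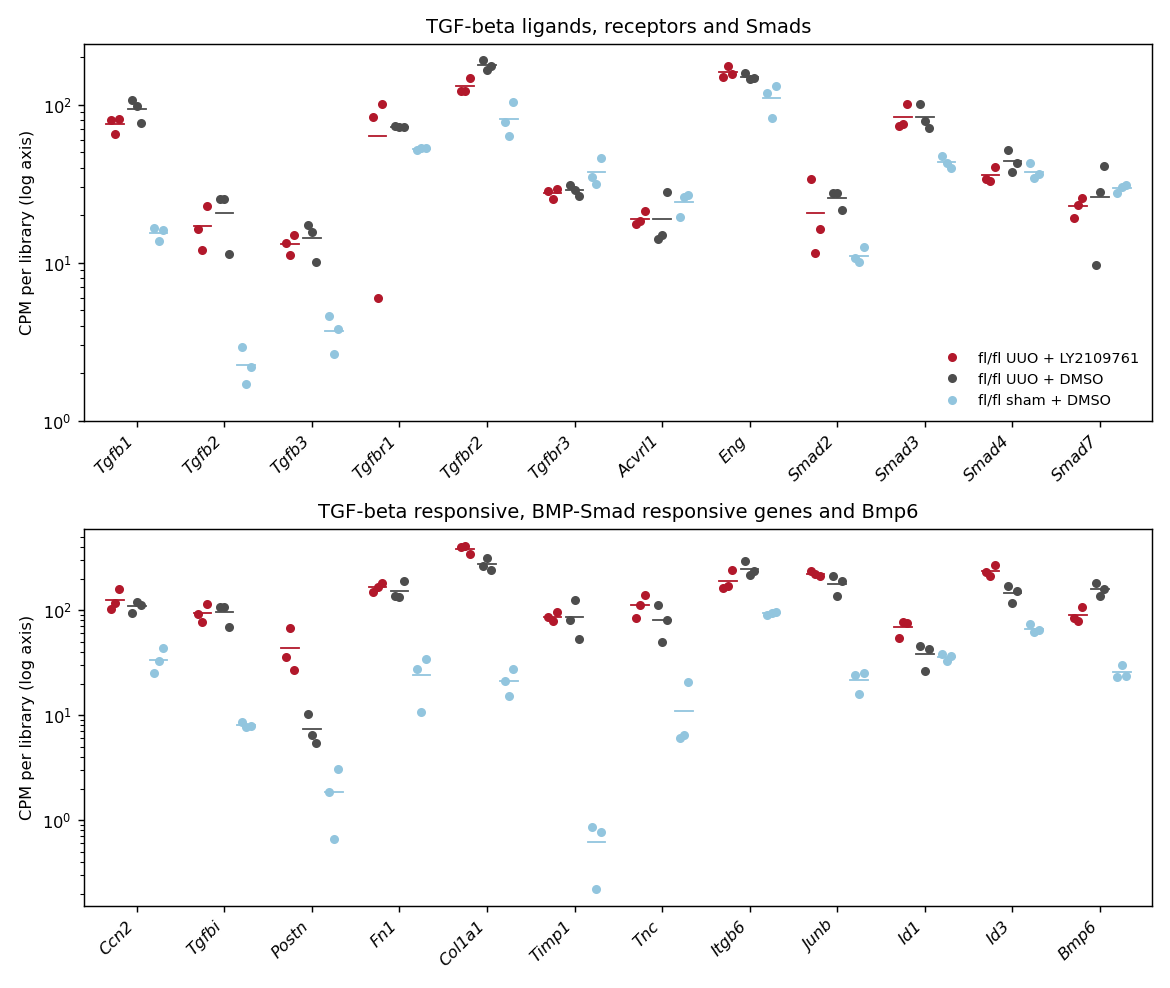
CPM per library (y axis, log scale) for ligands, receptors and Smads (upper panel) and for TGF-β responsive genes, BMP-Smad responsive genes and Bmp6 (lower panel), in obstructed fl/fl kidneys with LY2109761 (red), obstructed fl/fl kidneys with DMSO (grey) and sham fl/fl kidneys with DMSO (blue); lines are means of 3 libraries. The red and grey points overlap for most genes, Postn, Id1 and Id3 are higher and Bmp6 lower with LY2109761, and Tgfbr1 has a single red point at 6.01 CPM.

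A list of 25 genes known to respond to TGF-β held the obstruction response in both groups. Of these, 20 were higher with obstruction and LY2109761 than in sham kidneys, against 22.4% of all genes (42% in either direction, 19.6% lower), and 20 were higher with obstruction and DMSO than in sham kidneys, against 20.9% of all genes (39.6% in either direction, 18.7% lower). The median log2 differences were 2.11 and 2.03. These 2 contrasts share the sham libraries, and each shares a group with the inhibitor contrast. Summed over the 25 genes, the libraries held 1950, 2010 and 2340 CPM with LY2109761 and 2400, 2020 and 1760 CPM with DMSO, against 621, 467 and 586 CPM in sham kidneys. The sums of the obstructed groups overlapped. Between inhibitor and vehicle, 1 of the 25 rose and 0 fell, a count near the 2.52% and 2.62% of all genes, with a median of 0.02.

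The gene that rose was Postn (periostin, a matricellular protein of activated fibroblasts), and the other 24 did not pass. Ccn2 (connective tissue growth factor) differed by 0.19 (95% interval −0.37 to 0.75) and Tgfbi, a secreted matrix protein named for its induction by TGF-β, by −0.01 (−0.46 to 0.43). Pmepa1, a feedback inhibitor of the Smads, differed by −0.01 and Timp1, an inhibitor of matrix metalloproteases, by 0.02. The largest decrease of the list was Snai1, a transcription factor of epithelial-mesenchymal transition, at −0.74 (95% interval −1.41 to −0.07, edgeR adjusted p = 0.175).

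Postn had 35.7, 67.2 and 27.2 CPM with LY2109761 and 10.2, 6.45 and 5.47 CPM with DMSO, against 1.85, 0.67 and 3.09 CPM in sham kidneys. All inhibitor libraries lay above all vehicle libraries, and replicate 3 was the highest. The log2 fold change was 2.55 (SE 0.587, edgeR adjusted p = 0.0284), 2.09 without LY2109761 replicate 3 (adjusted p = 0.144) and 2.86 without DMSO replicate 1 (adjusted p = 0.0911). Postn lies on GRCm38 chromosome 3, 54361109 to 54391037, plus strand (ENSMUSG00000027750).

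Promoter sequence is shown for Postn, which rose, and for Tgfbi, which did not, since both are known TGF-β targets. Each window is the 250 bases before the gene's start, from RefSeq on GRCm38.p6, both on the plus strand, chr3:54360857-54361106 for Postn and chr13:56609336-56609585 for Tgfbi. Capitals mark CAGAC, the core of the Smad binding element, on either strand (GTCTG on the strand shown).
Postn: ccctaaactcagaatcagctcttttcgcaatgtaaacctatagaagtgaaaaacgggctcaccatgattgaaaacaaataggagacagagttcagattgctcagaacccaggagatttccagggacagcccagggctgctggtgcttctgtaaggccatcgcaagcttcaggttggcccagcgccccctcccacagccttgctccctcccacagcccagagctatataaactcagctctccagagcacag
Tgfbi: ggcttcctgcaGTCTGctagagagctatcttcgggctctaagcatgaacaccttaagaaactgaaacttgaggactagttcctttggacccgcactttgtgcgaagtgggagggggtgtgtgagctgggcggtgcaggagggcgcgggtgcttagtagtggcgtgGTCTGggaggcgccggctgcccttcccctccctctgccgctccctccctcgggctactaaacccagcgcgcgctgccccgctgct
The Tgfbi window held 2 matches and the Postn window 0. The motif was in 42.2% of the 32851 windows of the table and in 6 of the 13 windows found for the list (46.2%), so the list's share was close to that of all promoters.

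Lum, Eln, Mfap5 and Postn rose among the fibrillar collagen and interstitial matrix genes, and no gene of that list fell. Of 28 genes, 4 rose and 0 fell, against 2.52% and 2.62% of all genes tested. The median of the 28 was 0.41, beside 0.02 over all genes, and 25 were above 0. Summed over the list, the libraries held 3790 to 3940 CPM with LY2109761 and 2900 to 3140 CPM with DMSO, against 626 to 827 CPM in sham kidneys, with no overlap between the groups.

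Lum (lumican, a proteoglycan that organises collagen fibrils) had 18.5, 22.1 and 9.31 CPM with LY2109761 and 2.71, 2.67 and 3.54 CPM with DMSO, against 2.34, 1.11 and 1.86 CPM in sham kidneys. The vehicle libraries were close to sham and the inhibitor libraries well above both. The log2 fold change was 2.48 (SE 0.349, edgeR adjusted p = 0.0093), and leaving out LY2109761 replicate 3 gave 2.22 (adjusted p = 0.0568). Eln (elastin, the core of elastic fibres) had 48.2, 57.4 and 38.5 CPM with LY2109761 and 20.7, 16.0 and 23.2 CPM with DMSO, against 42.1, 24.8 and 29.5 CPM in sham. Here the vehicle libraries were the lowest of the 3 groups, at a log2 fold change of 1.27 (SE 0.241, edgeR adjusted p = 0.015). Mfap5, a microfibril protein of the same elastic fibres, rose by 1.49 (edgeR adjusted p = 0.0364).

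The main fibrillar collagens did not pass. Col3a1 had 646, 649 and 542 CPM with LY2109761 and 272, 358 and 389 CPM with DMSO, without overlap, at 0.85 (95% interval 0.27 to 1.43, edgeR adjusted p = 0.081). Col1a2 differed by 0.62 (0.16 to 1.08, edgeR adjusted p = 0.102) and Col1a1 by 0.48 (−0.08 to 1.05, edgeR adjusted p = 0.303). Fn1 (fibronectin) differed by 0.11, and Col8a1 was the lowest of the list at −0.63. With each library left out in turn, between 0 and 4 genes of the list rose and at most 1 fell. Eln had an edgeR adjusted p of 0.0902 without LY2109761 replicate 3 and 0.0705 without DMSO replicate 1, and Mfap5 of 0.159 and 0.124. Among 17 genes that crosslink or process collagen, 22 metalloproteases and their inhibitors and 21 basement membrane genes, 0 were called, against 5.15% of all genes. Their medians were 0.02, −0.18 and 0.03.

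Of 21 fibroblast and pericyte genes, 1 rose and 0 fell, a count near the 2.52% and 2.62% of all genes, with a median of 0.15. Cthrc1, a secreted protein that marks matrix-producing fibroblasts, had 4.03, 4.69 and 2.28 CPM with LY2109761 and 0.95, 0.73 and 0.64 CPM with DMSO, a log2 fold change of 2.22 (SE 0.528, edgeR adjusted p = 0.0302). Acta2 (smooth muscle actin, the usual myofibroblast marker) had 106, 133 and 150 CPM with LY2109761 and 161, 134 and 76.9 CPM with DMSO. The groups overlapped for Acta2, at 0.07 (95% interval −0.77 to 0.90), and Pdgfrb, the receptor of pericytes and fibroblasts, differed by 0.02. Sfrp2, Igfbp6 and Meg3 are on none of the lists and were named for the size of their change. Sfrp2, a secreted modulator of Wnt signalling, had 5.79, 13.6 and 4.41 CPM with LY2109761 and 2.75, 2.09 and 1.77 CPM with DMSO (log2 fold change 1.84, edgeR adjusted p = 0.0154). Igfbp6, a binding protein of insulin-like growth factors, had 13, 17.4 and 2.76 CPM with LY2109761 and 1.68, 2.23 and 1.13 CPM with DMSO (2.71, edgeR adjusted p = 0.0322). Meg3, an imprinted long noncoding RNA, had 12.2, 27.0 and 5.33 CPM with LY2109761 and 1.76, 2.18 and 1.72 CPM with DMSO (2.97, edgeR adjusted p = 0.0166). In all 3 genes replicate 3 was the highest and replicate 4 the lowest of the inhibitor libraries, and without replicate 3 none of them passed. Without it Sfrp2 was at 1.20, Igfbp6 at 2.22 and Meg3 at 2.21 (edgeR adjusted p = 0.0825, 0.155 and 0.0983), and Cthrc1 had an adjusted p of 0.143. In bulk tissue, more cells of a type and more RNA per cell cannot be told apart.

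Of tissues that adjoin the kidney, urothelium had markers that were also higher with LY2109761. Their sum was lowest in LY2109761 replicate 1, where Sfrp2, Igfbp6 and Meg3 were lowest in replicate 4. All 10 urothelial markers were above 0, and 3 of the 10 rose, against 2.52% of all genes, with a median of 1.66. Summed over the list, the libraries held 350, 721 and 454 CPM with LY2109761 and 134, 230 and 79.7 CPM with DMSO, against 103, 48.8 and 196 CPM in sham kidneys. Upk2, a uroplakin of the barrier plaques of the urothelium, had 19.8, 64.0 and 19.8 CPM with LY2109761 and 4.56, 9.31 and 2.73 CPM with DMSO, against 4.90, 3.25 and 7.72 CPM in sham. The groups did not overlap, at 2.64 (SE 0.594, edgeR adjusted p = 0.026), and without LY2109761 replicate 3 the value was 1.84 (adjusted p = 0.149). Upk1b rose by 2.32 (edgeR adjusted p = 0.0349), and was at 1.65 without that library (adjusted p = 0.185). Upk3a had 16.4, 77.1 and 18.2 CPM with LY2109761 and 3.31, 8.63 and 3.43 CPM with DMSO, against 10.9, 6.14 and 14.9 CPM in sham. It rose by 2.86 (edgeR adjusted p = 0.0497), and was at 1.75 without that library (adjusted p = 0.279). Without DMSO replicate 2, the highest of the vehicle group, Upk1b, Upk2 and Upk3a were at 2.92, 3.23 and 3.46. Krt14, a keratin of basal urothelial cells, had 49.0, 57.8 and 54.8 CPM with LY2109761 and 20.1, 26.1 and 8.31 CPM with DMSO, and missed the threshold (1.56, edgeR adjusted p = 0.0706).

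Adipose markers stood apart in 2 of the 3 inhibitor libraries. Adipoq (adiponectin, a hormone of fat cells) had 4.14, 6.14 and 0.10 CPM with LY2109761 and 0.39, 0.29 and 0.38 CPM with DMSO, and Cfd (adipsin) had 15.6, 25.9 and 0.87 CPM with LY2109761 and 1.89, 0.87 and 0.59 CPM with DMSO. Replicates 1 and 3 were high and replicate 4 was at the vehicle level. Neither gene passed, and without replicate 3 the log2 differences of 3.26 for Adipoq and 3.63 for Cfd were 2.56 and 2.85. Of 9 adipose genes tested, 1 rose, against 2.52% of all genes. It was Fabp4, a fatty acid carrier that capillary endothelium also makes (1.21, SE 0.33, edgeR adjusted p = 0.0472, and 0.212 without LY2109761 replicate 3). The 9 genes summed to 168, 209 and 103 CPM with LY2109761 and 57.4, 66.3 and 67.7 CPM with DMSO, against 266, 62.1 and 62.6 CPM in sham, and 7 of the 10 markers in the table were counted in all 6 libraries. The part of adjoining tissue in the rise of Lum, Postn, Sfrp2, Igfbp6 and Meg3 was not tested.

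**Figure D3:**
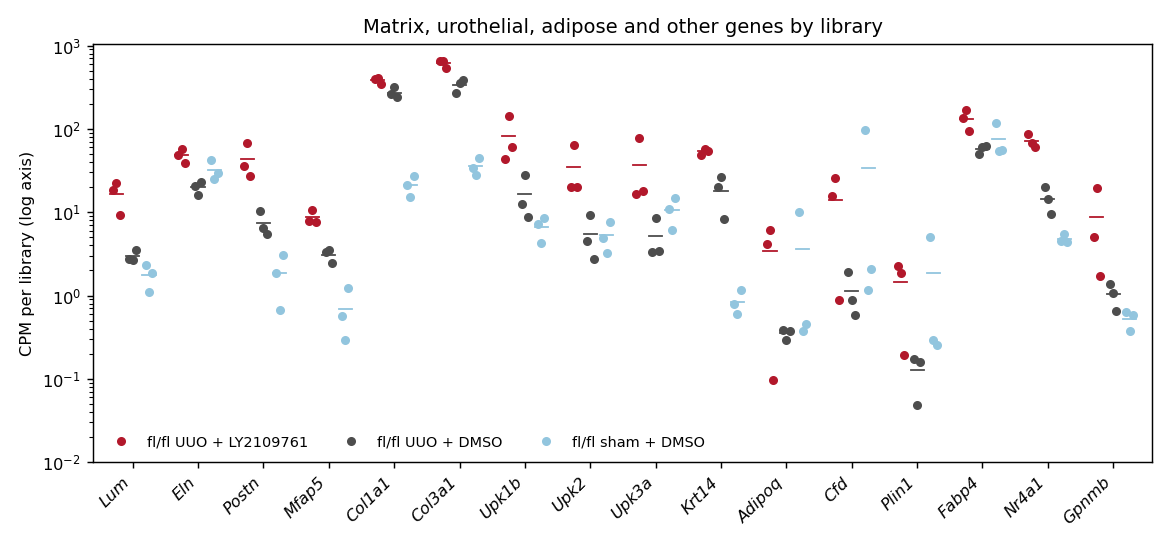
CPM per library (y axis, log scale) for matrix, urothelial, adipose and other genes in obstructed fl/fl kidneys with LY2109761 (red), obstructed fl/fl kidneys with DMSO (grey) and sham fl/fl kidneys with DMSO (blue); lines are means of 3 libraries. Red points lie above grey points for Lum, Eln, Postn, Upk2 and Nr4a1, while Adipoq, Cfd and Plin1 have 2 high red points and 1 near the grey ones.

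On the BMP side, 2 of 9 Smad-responsive genes rose and 0 fell, against 2.52% and 2.62% of all genes, with a median of 0.13. Id3, an inhibitor of helix-loop-helix transcription factors and a direct BMP target, had 230, 214 and 267 CPM with LY2109761 and 171, 117 and 151 CPM with DMSO, against 73.1, 61.8 and 65.3 CPM in sham. The groups did not overlap, at 0.69 (SE 0.174, edgeR adjusted p = 0.0353). Id1, of the same family, had 54.0, 77.4 and 75.0 CPM with LY2109761 and 45.6, 26.3 and 42.6 CPM with DMSO, against 38.4, 33.1 and 36.5 CPM in sham, so that only the inhibitor libraries stood above the sham range of this gene in all 3 replicates. Its log2 fold change was 0.85 (SE 0.223, edgeR adjusted p = 0.0409). The other members, among them Id2 at −0.19, Id4 at −0.34 and the decoy receptor Bambi at −0.19, did not pass.

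Of 22 BMP and activin ligands, receptors and antagonists, 1 fell and 0 rose, with 2.62% and 2.52% of all genes lower and higher and a list median of 0.09, so the count was near that of all genes. Bmp6, the ligand best known for its control of hepcidin, had 84.1, 79.7 and 107 CPM with LY2109761 and 183, 136 and 160 CPM with DMSO, against 23.1, 30.0 and 23.7 CPM in sham. All inhibitor libraries were below all vehicle libraries and above sham, at −0.82 (SE 0.216, edgeR adjusted p = 0.0405). None of Id1, Id3 and Bmp6 passed without LY2109761 replicate 3 (edgeR adjusted p = 0.177, 0.108 and 0.182) or without DMSO replicate 1 (0.0972, 0.0849 and 0.164).

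**Figure D4:**
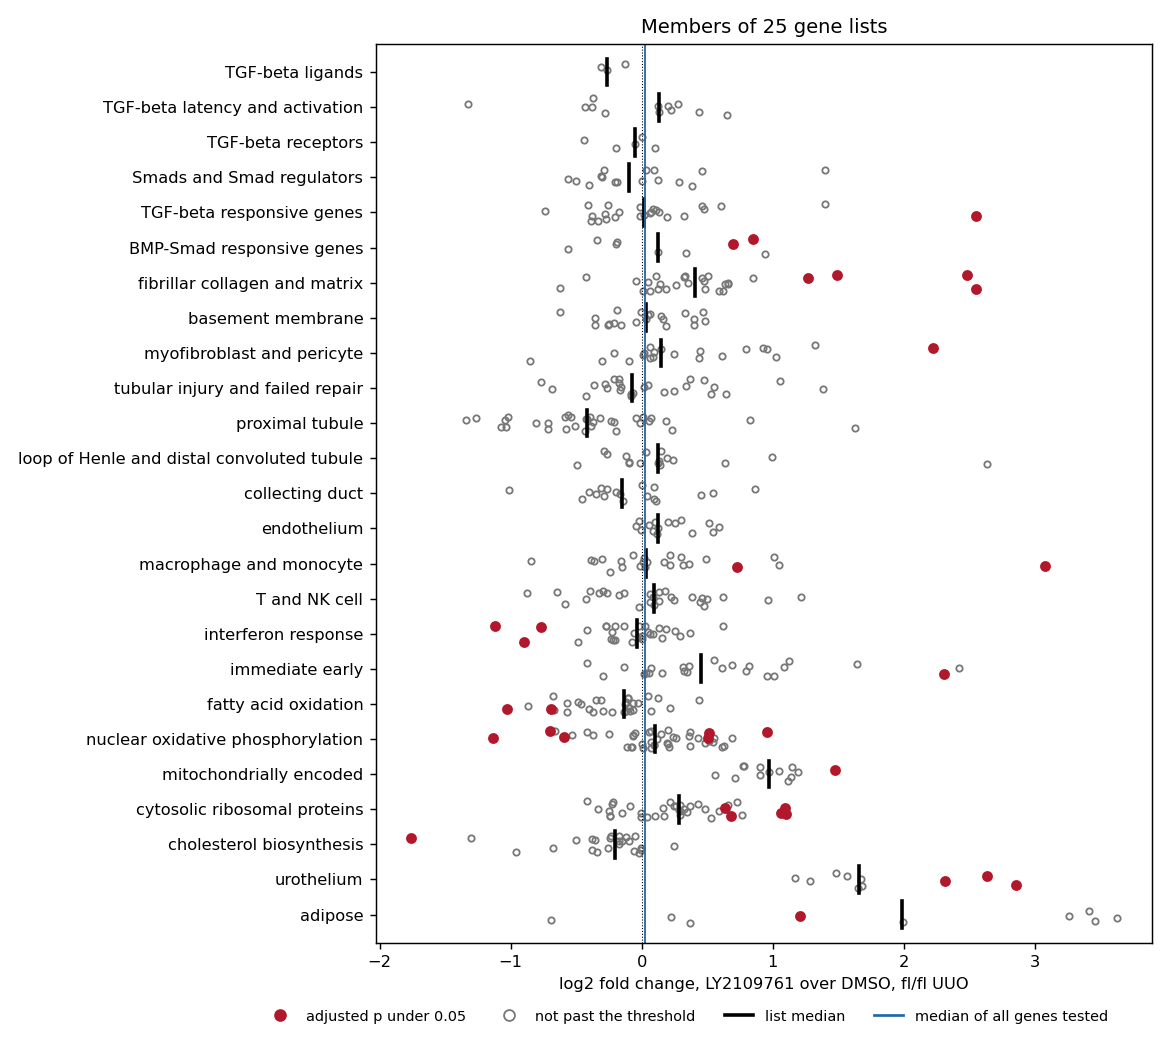
Log2 fold change of LY2109761 over DMSO in obstructed fl/fl kidneys (x axis) for the tested members of 25 gene lists (y axis); filled red points have an adjusted p under 0.05, open points do not, black bars are list medians and the blue line is the median of all genes tested. The medians of the TGF-β lists lie between −0.26 and 0.13, while the medians of the urothelial (1.66), adipose (1.99) and mitochondrially encoded (0.97) lists lie to the right.

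No nephron segment list held a called gene, against 5.15% of all genes tested. Of 33 proximal tubule genes, 0 were called and 26 were below 0, with a median of −0.42. Under the alternative settings between 0 and 6 of them fell and 0 rose. Fbp1, a gluconeogenic enzyme, had 86.6, 40.4 and 116 CPM with LY2109761 and 217, 139 and 261 CPM with DMSO, without overlap (−1.34, 95% interval −2.16 to −0.53, edgeR adjusted p = 0.054). Lrp2 (megalin, the endocytic receptor of the brush border) had 238, 214 and 264 CPM with LY2109761 and 454, 303 and 497 CPM with DMSO (−0.81, −1.32 to −0.30, edgeR adjusted p = 0.0596). In the summed list the groups overlapped, at 10700 to 15200 CPM with LY2109761 and 9670 to 15700 CPM with DMSO, and the most abundant member, Kap, an androgen-regulated protein of proximal tubule, lay on the other side at 0.82. Sham kidneys held 49100 to 63800 CPM. Of 26 genes of tubular injury and failed repair, 0 were called, against 5.15% of all genes, with a median of −0.07. Spp1 (osteopontin) differed by −0.16, Lcn2 (NGAL) by −0.18 and Vcam1, which marks failed-repair proximal tubule cells, by −0.21. S100a6, a calcium-binding protein, lay at the other end of that list at 1.38 (edgeR adjusted p = 0.0712). Markers of the thick limb and distal nephron, of the collecting duct, of podocytes and of endothelium had medians of 0.12, −0.15, 0.08 and 0.13 with 0 calls.

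Few leukocyte genes passed. Of 24 macrophage and monocyte genes, 2 rose and 0 fell, against 2.52% and 2.62% of all genes, with a median of 0.03. Lgals3 (galectin-3, a lectin of macrophages and injured epithelium) had 196, 287 and 184 CPM with LY2109761 and 123, 148 and 132 CPM with DMSO (0.72, SE 0.163, edgeR adjusted p = 0.026). Gpnmb, a glycoprotein of lipid-laden and scar-associated macrophages, had 5.07, 19.7 and 1.70 CPM with LY2109761 and 1.38, 1.07 and 0.64 CPM with DMSO (3.07, SE 0.664, edgeR adjusted p = 0.0238). The range within the inhibitor group was wide for Gpnmb, and without LY2109761 replicate 3 neither passed (0.50 for Lgals3, edgeR adjusted p = 0.146, and 1.70 for Gpnmb, edgeR adjusted p = 0.144). Of the pan-macrophage genes, none passed, with C1qa at 0.04, Csf1r at −0.01 and Cd68 at 0.22. No gene was called among 28 T and NK cell genes, 12 B and plasma cell genes and 5 tested neutrophil genes, against 5.15% of all genes. Nor was any of 7 MHC class II genes or of 28 cytokines and chemokines. The list medians were, in that order, 0.09, 0.51, 0.30, 0.10 and 0.19. Of the neutrophil markers, Elane was at 0 in all 6 libraries.

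Interferon-response genes gave 3 decreases among 30 and 0 increases, against 2.62% and 2.52% of all genes, around a median of −0.04. Gbp2, a guanylate-binding protein, had 27.2, 30.2 and 30.8 CPM with LY2109761 and 69.3, 61.3 and 61.0 CPM with DMSO, against 6.89, 8.88 and 12.4 CPM in sham (−1.12, SE 0.24, edgeR adjusted p = 0.0231). Irf1 and Irf9, transcription factors of the interferon pathways, fell by 0.77 and 0.90 on the log2 scale (edgeR adjusted p = 0.0291 and 0.0455), while Mx1 differed by 0.62 without passing. The immediate early genes had 21 of 24 members above 0 and a median of 0.45, and 1 of them rose, against 2.52% of all genes. Nr4a1, an orphan nuclear receptor induced within minutes of stimulation, had 87.0, 67.7 and 61.2 CPM with LY2109761 and 19.8, 14.3 and 9.38 CPM with DMSO, against 4.55, 5.47 and 4.44 CPM in sham (2.31, SE 0.606, edgeR adjusted p = 0.0411). Dusp1, a phosphatase of MAP kinases, followed at 1.12 and Fosb, a subunit of AP-1, at 2.42, both short of the threshold (edgeR adjusted p = 0.0599 and 0.0716). Fosb had 16.1, 4.69 and 2.42 CPM with LY2109761 and 1.68, 1.46 and 1.18 CPM with DMSO, and was at 1.29 without LY2109761 replicate 1. Without LY2109761 replicate 3 the edgeR adjusted p of Gbp2, Irf1, Irf9 and Nr4a1 was 0.106, 0.137, 0.133 and 0.139.

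Mitochondrially encoded genes took 12.1% to 16.4% of counts with LY2109761 and 7.43% to 7.67% with DMSO, against 30.8% to 35.5% in sham kidneys. The groups did not overlap, with a difference of 6.20 percentage points and an exact two-sided permutation p of 0.1, the smallest that 3 against 3 libraries allow. All 13 protein-coding genes of the mitochondrial genome were above 0, with a median of 0.97, and 1 passed, against 2.52% of all genes higher. This was mt-Nd3, a complex I subunit, with 1050, 1400 and 778 CPM with LY2109761 and 395, 304 and 462 CPM with DMSO (1.47, SE 0.36, edgeR adjusted p = 0.0325). Of 44 nuclear genes of oxidative phosphorylation, 3 rose and 3 fell, against 2.52% and 2.62% of all genes, with a median of 0.10. Those that rose were Ndufa5 of complex I by 0.96 and Cox5b and Cox6b1 of complex IV by 0.50 and 0.51, and those that fell were Atp5f1a and Atp5f1b, the alpha and beta subunits of ATP synthase, by 0.70 and 1.14 and Ndufs1, the largest subunit of complex I, by 0.59 on the log2 scale. Without LY2109761 replicate 3 none of the 7 passed, with an edgeR adjusted p of 0.157 for mt-Nd3 and 0.119 for Ndufa5.

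Hadha and Etfdh fell among the genes of fatty acid oxidation. Of the 31 genes of that list, 2 fell and 0 rose, against 2.62% and 2.52% of all genes, and 5 were above 0, with a median of −0.14. Hadha, the alpha subunit of the trifunctional protein, had 78.3, 75.5 and 99.5 CPM with LY2109761 and 146, 132 and 132 CPM with DMSO (−0.70, SE 0.145, edgeR adjusted p = 0.021). Etfdh, which passes electrons from acyl-CoA dehydrogenases to ubiquinone, fell by 1.03 on the log2 scale (edgeR adjusted p = 0.023). Hsp90aa1, the inducible cytosolic HSP90 chaperone, had 53.1, 50.2 and 85.8 CPM with LY2109761 and 325, 151 and 121 CPM with DMSO, against 90.4, 93.3 and 114 CPM in sham (−1.66, edgeR adjusted p = 0.0288), so that its inhibitor libraries were below the sham range and its vehicle libraries above it. It was the 1 call among 17 heat shock genes, against 2.62% of all genes lower, and without DMSO replicate 1, its highest library, it was at −1.11. Without LY2109761 replicate 3 the edgeR adjusted p of Hadha, Etfdh and Hsp90aa1 was 0.117, 0.127 and 0.149.

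Cytosolic ribosomal protein genes gave 5 increases and 0 decreases among 37, against 2.52% and 2.62% of all genes, with 26 above 0 and a median of 0.28. Rpl14 had 302, 377 and 221 CPM with LY2109761 and 131, 120 and 180 CPM with DMSO (1.06, SE 0.187, edgeR adjusted p = 0.0104), and Rpl13 and Rpl23 rose by 1.10 and 0.63. Rpl14 had an adjusted p of 0.0694 without LY2109761 replicate 3. Ribosomal protein genes have many processed pseudogene copies, so their counts are uncertain where reads match both. Values also went with gene length, taken as the length implied by the deposited FPKM, which need not be that of the mature message. Among protein-coding genes of up to 600 nucleotides the median was 0.52 (61 genes), and above 5000 nucleotides it was −0.010 (9373 genes). On this measure the ribosomal list had a median length of 4028 nucleotides. Protein-coding genes above 3000 and up to 5000 nucleotides had a median log2 fold change of −0.00526 (3205 genes). Shorter median lengths were those of the mitochondrially encoded (784), adipose (1721) and urothelial (1929) lists. Whether length had a part in the increases of any of these lists was not tested. Single calls came from other lists, a count near the 2.52% higher and 2.62% lower of all genes. The unfolded protein response had 6 of 27 genes above 0 and a median of −0.25, the NRF2 list 11 of 25 and −0.08, and the circadian clock 10 of 18 and 0.09. Against these, Ddit3 (CHOP, a transcription factor of the unfolded protein response) rose by 0.75 and Gsta4, a glutathione transferase of the NRF2 list, by 1.51, and Hlf, a clock-controlled transcription factor, fell by 0.69 on the log2 scale (edgeR adjusted p = 0.0248, 0.0451 and 0.0466). No gene was called in the lists for epithelial-mesenchymal transition, the cell cycle, p53 targets, glycolysis with hypoxia, the methyl cycle with protein repair, adrenal cells, erythroid cells and genes that differ by sex in kidney. The share of all genes called was 5.15%. With each library left out in turn, the ribosomal list gave between 0 and 8 calls.

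The 15 largest decreases, counted over called genes that averaged at least 5 CPM, did not overlap between the groups and had a standard symbol, belonged to no list. Among them Ttll12 (ENSMUSG00000016757, GRCm38 chromosome 15, 83575090 to 83595157, minus strand), a member of the tubulin tyrosine ligase-like family, had the smallest adjusted p. It had 1.96, 2.38 and 4.70 CPM with LY2109761 and 34.6, 33.2 and 28.0 CPM with DMSO, against 22.4, 22.6 and 23.7 CPM in sham (−3.40, SE 0.333, edgeR adjusted p = 0.000591). The inhibitor libraries were far below both other groups, and the call held under all 15 alternatives. The range over the 12 remaining libraries of the table, sham and tKO, was 2.16 to 23.7 CPM. Plekhm3 had 3.05, 3.56 and 2.96 CPM with LY2109761 and 16.0, 17.0 and 16.0 CPM with DMSO (−2.36, edgeR adjusted p = 0.00622). Stim1, the calcium sensor of the endoplasmic reticulum, had 1.81, 1.91 and 2.28 CPM with LY2109761 and 8.55, 11 and 8.79 CPM with DMSO (−2.23, edgeR adjusted p = 0.00935). Plekhm3 and Stim1 passed under 14 of the 15 alternatives, and failed without LY2109761 replicate 3 (edgeR adjusted p = 0.0511 and 0.0627).

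Several of these genes took either a high or a low level across libraries. Crispld2, a secreted protein of mesenchymal cells, had 0.67, 0.66 and 1.36 CPM with LY2109761 and 53.8, 38.3 and 41.9 CPM with DMSO, and ran from 0.78 to 53.7 CPM over the other 12 libraries. Nnt (the mitochondrial transhydrogenase that makes NADPH) is split in the table over 2 overlapping gene models. The model ENSMUSG00000116207 had 0 counts in all 3 LY2109761 libraries and 6261 counts over the 3 DMSO libraries, at least 1820-fold lower when 3 counts in all are allowed for the LY2109761 group, a limit for counting error alone. The model ENSMUSG00000025453 went the other way, with 78.6, 68.2 and 18.6 CPM with LY2109761 and 2.10, 2.28 and 17.1 CPM with DMSO. Together the models held 55.2 ± 32.1 CPM with LY2109761 and 106 ± 14.1 CPM with DMSO (SD, n = 3 each). In tKO kidneys ENSMUSG00000116207 was also at 0 in obstructed LY2109761 replicate 2, obstructed DMSO replicate 1 and sham replicate 2. The pseudogene Bnip3l-ps likewise had 0.10, 0.13 and 0.097 CPM with LY2109761 and 16.2, 15.2 and 15.4 CPM with DMSO, while an overlapping unnamed model (ENSMUSG00000121633) had 19.9, 19.9 and 19.2 CPM with LY2109761 and 8.17, 9.51 and 8.74 CPM with DMSO. In fl/fl sham kidneys Bnip3l-ps was at 0.14, 0.22 and 0.13 CPM. Over the other 12 libraries it ran from 0.054 to 15.7 CPM, the highest being tKO replicate 2 with obstruction and LY2109761. How reads were assigned between overlapping models is not given in the sources used here, so the fold of a single model is uncertain. The other decreases among the 15 largest were Mbnl1 and Zbtb7a, regulators of splicing and transcription, by 3.02 and 2.72, Coq8a of coenzyme Q synthesis by 2.61, the adhesion receptor Adgrg1 by 2.53, the telomere protein Pot1b by 2.43, the kinase Rps6ka3 by 2.05, Piga of GPI anchor synthesis by 2.05, Pogz by 2.00 and the phosphatase gene copy Ppp1ccb by 1.94 on the log2 scale. Without LY2109761 replicate 3 none of these passed. Without DMSO replicate 1 Adgrg1, with 1070 CPM there and 345 and 289 CPM in the other DMSO libraries, was at −1.70 (edgeR adjusted p = 0.214) and Mbnl1 at −2.39. Without LY2109761 replicate 4 Ppp1ccb was at −2.52.

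Counting called genes that averaged at least 5 CPM, did not overlap between the groups and had a standard symbol, the largest increases not described above were Fam25a at 2.78, Golm2 at 2.68, Dpysl3, a cytoskeletal protein of migrating cells, at 2.14, Fxyd3, a regulator of the sodium pump, at 1.88, the ribosomal RNA model Rn18s-rs5 at 1.83 and the mitochondrial transfer RNA mt-Ti at 1.76. Fam25a had 8.17, 22.0 and 5.09 CPM with LY2109761 and 1.85, 2.04 and 1.18 CPM with DMSO, and was at 1.96 without LY2109761 replicate 3. Rn18s-rs5 was at 2.50 without DMSO replicate 3. Dpysl3 had 116, 105 and 115 CPM with LY2109761 and 24.9, 27.1 and 24.4 CPM with DMSO, against 9.16, 10.4 and 10.2 CPM in sham (edgeR adjusted p = 0.0226). Its 3 groups did not overlap, and without LY2109761 replicate 3 the adjusted p was 0.0902. In the 6 obstructed tKO libraries Dpysl3 stood at 104 to 162 CPM with LY2109761, and at 15.6, 124 and 95.5 CPM with DMSO.

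The same inhibitor contrast in obstructed tKO kidneys, which shares no library with the fl/fl contrast, gave 16 genes higher (0.0831%) and 17 lower (0.0883%), together 0.171% of those tested. Of the 486 genes higher with LY2109761 in fl/fl kidneys, 436 (89.7%) were below 0 in the tKO contrast, with a median of −0.43. Of the 505 lower genes, 484 (95.8%) were above 0, with a median of 0.51. Opposite signs were also the rule over all 19256 genes, at 68.7%. Some lists lay on the same side in both genotypes. In tKO kidneys the urothelial list had 10 of 10 genes above 0 (median 0.91) and the mitochondrially encoded list 12 of 13 (median 0.44), with 0 called in either. No gene passed in both contrasts in the same direction, and 18 passed in both in opposite directions. The test of the difference between the genotypes, an interaction term in the same fit, called 2666 genes (13.8%), 1309 with the larger value in fl/fl (6.8%) and 1357 with the smaller (7.05%). Without LY2109761 replicate 3 of the fl/fl group it called 1340. In tKO kidneys Lum had 3.29, 3.40 and 3.54 CPM with LY2109761 and 5.74, 3.20 and 5.79 CPM with DMSO (−0.52), and the effect differed between genotypes by 3.01 (interaction, edgeR adjusted p = 0.00213). Rpl14 had 154, 153 and 120 CPM with LY2109761 and 279, 293 and 291 CPM with DMSO in tKO kidneys (−1.01), the reverse of its rise in fl/fl. Ttll12 was at 3.62, 5.18 and 5.09 CPM with LY2109761 and 3.01, 2.16 and 2.82 CPM with DMSO in tKO kidneys, so that among obstructed kidneys it was above 5.18 CPM in the fl/fl DMSO libraries alone. The fibrillar matrix list summed to 3460 to 4510 CPM with LY2109761 and 4970 to 6860 CPM with DMSO in tKO kidneys, with no overlap, and 0 of its genes passed there.

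**Figure D5:**
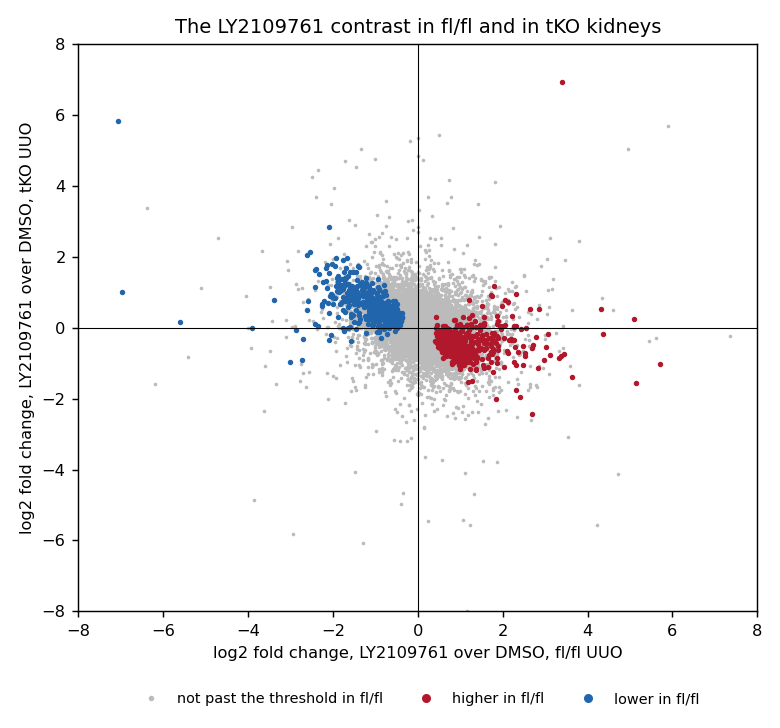
Log2 fold change of LY2109761 over DMSO in obstructed fl/fl kidneys (x axis) against the same contrast in obstructed tKO kidneys (y axis) for 19256 genes, with 7 genes outside the plotted range. Genes higher (red) in fl/fl lie mostly below the horizontal line and genes lower (blue) mostly above it.

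The first 3 principal components of the 18 libraries held 49%, 10.7% and 5.84% of the variance. On the second the LY2109761 libraries lay at −28.1 to 9.95 and the DMSO libraries at 34.6 to 52.9. The fl/fl sham libraries lay at 28.7 to 36.7, partly overlapping the DMSO range, and the obstructed tKO libraries at −37.6 to 7.66. On the third the LY2109761 libraries spread from 13.8 to 45.8 and the DMSO libraries from −27.1 to 2.25.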

How the data were processed

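Whole-kidney RNA was extracted with TRNzol and made into mRNA libraries, per the labels' protocols. The deposited table gives read counts per gene and FPKM made by the authors; fastp, HISAT2, StringTie and mouse builds GRCm38 and mm10 are named per the submitters' processing notes, without versions. The counter, gene annotation and strand setting are not given in the sources used here. Only 2.79% of the 51884 gene IDs found in GENCODE M21 (GRCm38) had the table's start, so printed coordinates are those of GENCODE M21 by gene ID.

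From the counts, 18 libraries in 6 groups of 3 were fitted together by group with edgeR 4.0.16 in R 4.3.3 (limma 3.58.1), with TMM normalization, filterByExpr (19256 of 57180 genes kept), the quasi-likelihood F test on 12 residual degrees of freedom and Benjamini-Hochberg adjustment over all genes tested. Of the 18, tKO sham replicate 3 stood out, with 69.5% of its counts on mitochondrially encoded genes and a normalization factor of 0.352. A gene was called at an adjusted p under 0.05. Printed CPM use TMM library sizes, and SE and 95% intervals come from the same fit. On simulated counts the fit recovered 7.46% of genes changed 1.5-fold, 29.9% of those changed 2-fold and 95.5% of those changed 4-fold. It made 10 false calls with 18730 genes tested, beside 67, 67 and 66 genes changed 1.5-fold, 2-fold and 4-fold. Apart from these changes each simulated gene had the same mean CPM in all groups. The obstruction and genotype differences of these libraries were not simulated, so the number of false calls need not carry over. In that simulation most changes of 2-fold or less were not called. Alternatives were DESeq2 1.42.0, its size factors, column totals, no filter on low counts and the 6 libraries alone. Others were no mitochondrially encoded genes, a replicate block and each library of the compared groups left out. The tKO sham libraries were in no contrast and were not left out singly. The influence of tKO sham replicate 3 on the common fit was not tested. Summing gene models of a symbol and protein-coding genes alone were added after seeing the data.

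The comparison and the 45 gene lists were chosen with earlier results of these data known. Genes named by rule were Pcmt1, the TGF-β ligands, receptors and Smads, the 15 largest increases and 15 largest decreases (mean CPM of at least 5, no overlap between groups, a standard symbol, which left out 118 called genes), up to 4 members of each list by p, and 6 genes per direction by interaction p. Other named genes were chosen after their values were seen. A few genes of the lists are counted but not reported by name here.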

Additional observations from a re-analysis of the deposited data

Results flagged for a closer look

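For the genes here, the LY2109761 effect differed between fl/fl and tKO obstructed kidneys by the interaction test (edgeR adjusted p under 0.05). Values are the log2 fold change in fl/fl minus that in tKO. The genes were picked for their fl/fl effect or for a small interaction p, so the sizes describe these libraries and are not independent of that choice.

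Among matrix, stromal and adjoining-tissue genes, the difference was 3.01 for Lum, 2.55 for Postn, 2.08 for Eln, 2.05 for Mfap5, 2.25 for Sfrp2, 3.20 for Igfbp6, 3.88 for Meg3 and 1.75 for Fabp4. Among macrophage genes it was 3.26 for Gpnmb and 0.962 for Lgals3. The BMP genes gave 1.21 for Id1, 1.2 for Id3 and −1.44 for Bmp6. The immediate early gene Nr4a1 gave 4.06.

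Interferon-response genes gave −2.02 for Gbp2, −1.01 for Irf1 and −1.11 for Irf9. Lipid, stress and clock genes gave −1.07 for Hadha, −1.59 for Etfdh, −3.63 for Hsp90aa1, 0.905 for Ddit3 and −1.45 for Hlf. Mitochondrial subunits gave 1.82 for mt-Nd3, 1.47 for Ndufa5, 0.746 for Cox5b, 0.73 for Cox6b1 and −1.25 for Atp5f1a. Ribosomal proteins gave 2.08 for Rpl14 and 2.04 for Rpl13.

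Of the largest increases, Golm2 gave 5.12, Rn18s-rs5 3.85 and Fam25a 3.05. Golm2 varied widely within a group, at 1.67, 28.8 and 21.7 CPM in the tKO libraries with obstruction and DMSO. Of the largest decreases, Nnt gave −14.1, Bnip3l-ps −12.9, Crispld2 −5.77, Adgrg1 −4.66, Ttll12 −4.19, Pot1b −4.07, Stim1 −3.53, Coq8a −3.10, Ppp1ccb −3.10, Piga −2.99, Pogz −2.67 and Plekhm3 −2.39. The values of Nnt and Bnip3l-ps rest on libraries with few or no counts of a gene model that overlaps another, and a fitted fold of that kind is no bound. In the tKO libraries with obstruction and LY2109761, Crispld2 was at 0.89, 53.7 and 33.6 CPM and Adgrg1 at 175, 162 and 724 CPM.

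Named by interaction p, called in fl/fl or not, were Eeig2 at 5.70, Uqcc2 at 1.82, Rab7-ps1 at −3.18 and Ncoa4 at −2.35. Others were Gys1 at −2.11, Spint1 at −1.73 and Vezt at −1.72, with the ribosomal pseudogenes Rpl36a-ps1 at 2.19, Rps25-ps1 at 1.87 and Rpl28-ps1 at 1.54. Eeig2 itself differed by 0.25 in fl/fl and by −5.45 in tKO kidneys, and Gys1 by −0.17 and 1.95. Ncoa4 was called in fl/fl as well (−1.40, edgeR adjusted p = 0.00935) and differed by 0.95 in tKO kidneys.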

How the results depend on the processing

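The count of 991 genes became 25 with column totals, 360 with no filter on low counts, 54 with the 6 libraries alone, 2072 by DESeq2 and 425 among protein-coding genes alone, and ran from 2 to 1269 with a library left out. None of the 991 changed sign, but these fits share most or all libraries with the one that picked the genes. Of the 30 largest changes, 6 passed with column totals, 19 with no filter, 13 with the 6 libraries, 18 among protein-coding genes and 1 to 24 with a library left out. Of 45 lists, 19 held a call, against 3, 12 and 3 under the first 3 of these settings, 29 by DESeq2 and 0 to 19 with a library left out. The tKO count of 33 became 3, 13 and 898 with column totals, no filter and DESeq2, and 2 to 282 with a library left out. The interaction count of 2666 became 289 with column totals, 1624 with no filter and 1340 to 2829 with a library left out. The mitochondrial share differed by 4.87 to 6.98 points with a library left out and by 6.11 over 13 genes.

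Column totals turned the split of higher and lower genes to 8017 and 991 for LY2109761 against sham (4309 and 3776 with TMM; median 0.70) and to 8547 and 906 for DMSO against sham (4031 and 3594; median 0.76).

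Replicate numbers 1 and 3 are shared by the groups. Same-numbered libraries deviated together with correlations of −0.134 and 0.011, so the numbers were not taken as pairs. With a replicate block 967 genes were called, 666 of them among the 991, with 19 of the 30 largest changes and 6 genes in tKO.

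Signs turned for uncalled genes only, and the cause was not tested. Acvrl1 was −0.073 with column totals, −0.020 with no filter, −0.018 with the 6 libraries, −0.024 without mitochondrial genes and −0.15 with the block, Smad9 was −0.13 with the block, and Smad3 was 0.012 among protein-coding genes. With a library left out, Acvrl1 ran from −0.17 to 0.38, Smad9 from −0.15 to 0.37, Smad3 from −0.17 to 0.16, Smad7 from −0.61 to 0.28, Tgfb3 from −0.33 to 0.029, Tgfbr1 from −0.69 to 0.34, Tgfbr3 from −0.11 to 0.0046 and Eeig2 from −0.10 to 0.64.

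With 3 libraries a group, intervals of single genes were wide, and changes smaller than they span cannot be resolved.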

Other observations

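Calls were unevenly spread over gene types. Processed pseudogenes, which are copies of messages inserted back into the genome, made up 6.58% of the genes tested and 23% of the calls, with 82 higher and 146 lower, and 18% of them were called. Protein-coding genes had 293 higher and 325 lower, or 4.05% called. Among long noncoding RNAs 72 were higher and 14 lower, or 4.35% called. Gene length here is that implied by the deposited FPKM. Over protein-coding genes the median log2 fold change in fl/fl was 0.52 up to 600 nucleotides, 0.29 from there to 1000, 0.14 to 2000 and −0.010 above 5000. In the same classes of the tKO contrast the shortest had −0.32 and the longest 0.0093.

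Some genes were far lower in a single library of the 6, chosen here after their values were seen as those at least 8-fold below the lowest of the other 5 libraries, all of which held at least 10 CPM. There were 14, 20 and 8 such genes in LY2109761 replicates 1, 3 and 4, and 5, 0 and 4 in DMSO replicates 1, 2 and 3. Several are signalling or surface genes. Tgfbr1 in LY2109761 replicate 3 was at 6.01 CPM against 72.6 to 101 in the others. The same library held Sirt1, a deacetylase, at 2.38 CPM against 21.8 to 25.6. In LY2109761 replicate 1, Map3k7 (TAK1, a kinase that TGF-β receptors also activate) was at 5.01 CPM against 50.2 to 71.2, and Adam10, a sheddase, at 5.84 against 69.5 to 147. In LY2109761 replicate 4, Cldn2, the pore-forming claudin of proximal tubule, was at 0.049 CPM against 110 to 498. In DMSO replicate 1, the chemokine gene Cx3cl1 was at 15.7 CPM against 191 to 246.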
